A study of Mus musculus with 4 samples.

Results

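In all, 40 genes of the unfolded protein response and of the ATF4 stress program were followed in GC-1 cells, a mouse spermatogonial line, given an Hdac6 plasmid or an empty one. The genes were chosen by function, with earlier results of these data known. They are 15 chaperones, folding enzymes and degradation factors of the endoplasmic reticulum (ER), 10 stress sensors and transcription factors, and 15 ATF4 targets. The array holds 37074 gene names. Each group has 2 one-colour arrays, 4 in all. In the Hdac6 vector group, cells were transfected with a pCMV plasmid that carries murine Hdac6 with a myc/DDK tag, driven by a CMV promoter, and in the empty vector group with the plasmid alone. Both were cultured in high-glucose DMEM with serum and harvested 48 h after transfection. The plasmid was transfected into an established line, and the labels do not say which share of the cells took it up, nor whether the arrays of a group came from separate cultures. The p-values below thus cover only how far these arrays scatter, and that scatter may be technical.

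When misfolded protein builds up in the ER, the sensors IRE1 (Ern1), PERK (Eif2ak3) and ATF6 are released from the chaperone BiP (Hspa5). IRE1 splices Xbp1 mRNA, ATF6 is cut to free a transcription factor, and both turn on chaperone genes. PERK phosphorylates eIF2alpha, which slows translation in general while it favours that of Atf4 mRNA, and ATF4 in turn raises genes for amino acid synthesis and uptake and the factor CHOP (Ddit3). Much of the pathway thus acts on translation, splicing and protein cleavage, none of which these arrays read. HDAC6 is a largely cytoplasmic deacetylase of tubulin and HSP90 that binds ubiquitin and helps carry misfolded protein to the aggresome. The comparison asks whether these stress genes differ in RNA level once the Hdac6 plasmid has been introduced.

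Elements known to bind the factors of the pathway were looked for in the RefSeq promoters of the members, from 250 bases before to 50 after the start (build GRCm38.p6), on both strands. Of the 40 members, 36 were in the promoter table, and Manf, Hyou1, Atf6 and Slc7a5 were not. The ER stress response element, bound by ATF6 with NF-Y, was searched as CCAAT and CCACG 9 bases apart, and its second form as ATTGG and CCACG with 1 base between. Of 32851 promoters, 39 (0.119%) held the first form and 12 (0.0365%) the second. The first form was in 7 of the 13 ER genes with a promoter, namely Hspa5, Hsp90b1 (which has 2), Calr, Canx, Pdia6, Dnajc3 and Creld2, and the second in Herpud1. None of the 9 sensors and transcription factors and none of the 14 ATF4 targets held either. The lines below show these stretches because they divide the chaperone list into genes with and without the element; capitals mark the element.
Hspa5 (chr2:34772010-34772058, plus strand): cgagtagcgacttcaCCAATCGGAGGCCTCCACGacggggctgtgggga
Hsp90b1 (chr10:86705623-86705671, minus strand): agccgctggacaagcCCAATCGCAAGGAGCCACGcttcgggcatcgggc
Calr (chr8:84847060-84847108, minus strand): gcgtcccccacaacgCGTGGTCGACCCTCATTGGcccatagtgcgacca
Canx (chr11:50325785-50325833, minus strand): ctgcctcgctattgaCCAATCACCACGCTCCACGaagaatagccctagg
Pdia6 (chr12:17266476-17266524, plus strand): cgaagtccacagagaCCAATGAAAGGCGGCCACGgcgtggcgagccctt
Dnajc3 (chr14:118937812-118937860, plus strand): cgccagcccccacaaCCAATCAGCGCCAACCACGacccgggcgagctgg
Creld2 (chr15:88819505-88819553, plus strand): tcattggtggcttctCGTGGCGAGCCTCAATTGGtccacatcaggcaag
Herpud1 (chr8:94386362-94386402, plus strand): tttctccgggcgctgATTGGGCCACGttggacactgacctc

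The C/EBP-ATF response element, bound by ATF4 with a C/EBP partner, was searched as TGATGNAAN, which 1299 promoters (3.95%) held. It was in 6 of the 14 ATF4 targets (Chac1, Trib3, Slc7a11, Asns, Vldlr and Fgf21), in 2 of the 9 sensors and factors (Atf3 and Nupr1), and in Herpud1. Both orientations occur, and the Slc7a11 promoter holds the element in each of them. The stretches of 7 of these 9 genes are shown, with the element in capitals, since their values are given below; that of Trib3 lies past the start, at bases 13 to 21, and is not printed, nor is that of Herpud1. A match describes the letters of this window and is no evidence of binding in these cells.
Atf3 (chr1:191183421-191183459, minus strand): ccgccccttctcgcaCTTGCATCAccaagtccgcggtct
Nupr1 (chr7:126625558-126625596, minus strand): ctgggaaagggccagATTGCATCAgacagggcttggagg
Chac1 (chr2:119351033-119351071, plus strand): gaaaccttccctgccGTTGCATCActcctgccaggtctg
Slc7a11 (chr3:50443638-50443676, minus strand): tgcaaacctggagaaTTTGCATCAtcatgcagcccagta
Asns (chr6:7693209-7693247, minus strand): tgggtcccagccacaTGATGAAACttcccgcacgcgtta
Vldlr (chr19:27216804-27216842, plus strand): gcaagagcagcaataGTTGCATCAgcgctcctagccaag
Fgf21 (chr7:45615607-45615645, minus strand): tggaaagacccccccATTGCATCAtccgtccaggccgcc

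**Figure D1:**
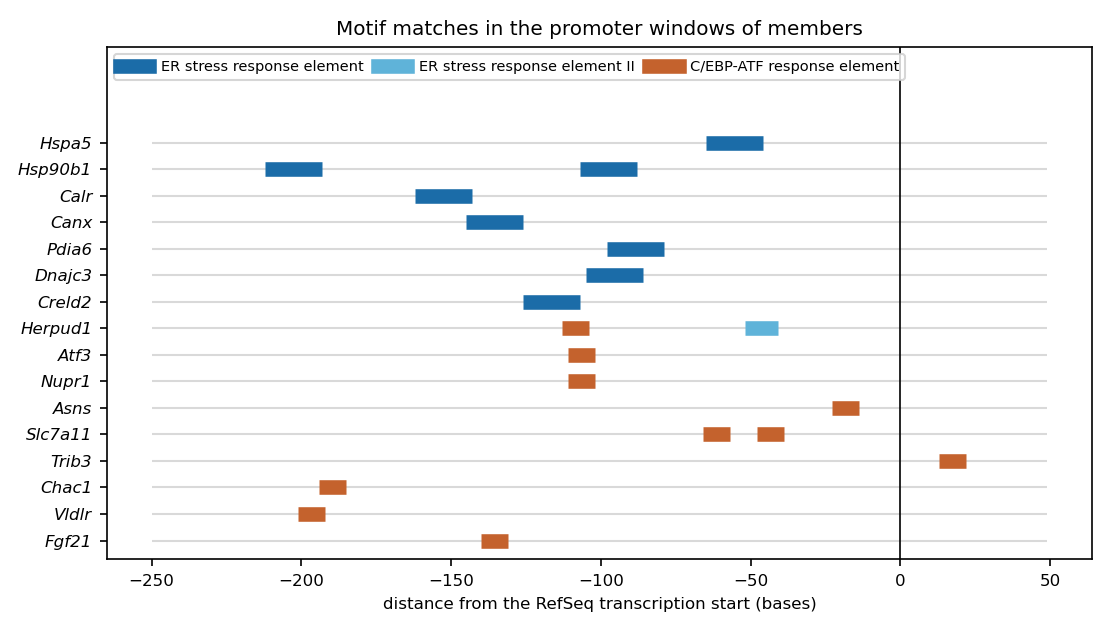
Position of each matched element in the promoter windows of the members (x axis, bases from the transcription start), 1 row per gene, coloured by element; grey lines span the window from 250 bases before to 50 after the start. The ER stress response elements of both forms lie in the top 8 rows, all ER genes, and the C/EBP-ATF elements in Herpud1 and the rows under it.

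All 40 members were measured well above background on all 4 arrays, and none of their spots was saturated. Level here means the log2 of the processed signal minus the array's 75th percentile, so a level of 0 lies at that percentile, and levels are compared between arrays for one probe, never between genes. Each member is represented by the brightest of its tested probes. The Hdac6 probe, which checks the labels, gave levels of 2.62 and 3.24 on the Hdac6 vector arrays, against 3.31 and 2.83 on the empty vector arrays (0.908-fold, 95% interval 0.578 to 1.43). This probe thus did not separate the groups. The labels do not say whether the plasmid's insert holds the sequence it reads, so the directions given here rest on the labels alone. Of 12 germ line markers, 7 were well above background on all arrays, while Dazl and Kit were not on any. Markers of other testis cells were also detected, with 3 of 5 Sertoli, 3 of 3 peritubular myoid, 3 of 4 macrophage and none of the 3 Leydig markers with a probe well above background on all arrays. GC-1 is an established line, and such signals do not show that cells of another type were in the cultures. Fewer cells of a type and less RNA per cell cannot be told apart in such samples. Of 20 tested markers none changed, and the groups did not overlap for 2 that were higher with the Hdac6 vector (Nanos3 and Acta2) and 4 that were lower (Ddx4, Gfra1, Sox9 and Cd68), against 12.3% and 12.9% of all tested genes. Ddx4 was well above background on 0 Hdac6 vector arrays and 2 empty vector arrays, and Gfra1 on 1 and 2. Both were thus tested only through the group where they were higher, so the filter favoured their being counted as lower. Within the lists the directions differed. Of the tested macrophage markers, Cd68 had a fold of 0.529, Ptprc 0.956 and Csf1r 1.1. Of the tested Sertoli markers, Sox9 had 0.688, Wt1 0.921 and Gata1 1.17. Of the tested myoid markers, Acta2 had 1.48, Myh11 1.05 and Des 0.795. Summed over a list's tested markers, in units of the array's 75th percentile, the macrophage signal was 11.6 to 13.9 on the Hdac6 vector arrays, against 16.1 to 26.7 on the empty vector arrays. The myoid signal was 12.2 to 13.6 with the Hdac6 vector, against 8.73 to 8.94 with the empty vector, and the summed germ line, Sertoli and Leydig signals overlapped. Most of the macrophage sum came from Cd68, at levels 3.32 and 2.88 with the Hdac6 vector, against 4.51 and 3.53 with the empty vector. Nearly all of the myoid sum came from Acta2, at 3.58 and 3.73 with the Hdac6 vector, against 3.06 and 3.12 with the empty vector. Both sums thus mostly read a single gene. Amh, Cldn11, Hsd3b1 and Adgre1 were not well above background on any array. Their part in the values below was not tested. From 61% to 66.4% of spots were well above background per array. Hdac6 vector 1 and empty vector 2 were the closest pair of arrays although they belong to different groups, with 0.601% of 32601 probes at least 2-fold apart, against 3.83% to 6.85% for the other pairs.

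No member changed. In limma's moderated test, Benjamini-Hochberg adjusted across the 35214 probes tested, every member had an adjusted p of 1.00, and none of the 40 reached an unadjusted p under 0.05, the lowest being 0.0667 for Pdia3. Over the whole array 4 probes changed, which is 0.0114%. Like the p-values, the intervals cover only how far these arrays scatter. For 35 of the 40 members (87.5%), the 95% interval of the fold change lay within 2-fold in either direction. The same held for 69.2% of all 23496 tested gene names. The typical interval reached 0.58 to each side on the log2 scale. For 35 members (87.5%) the gap between the 2 arrays of one group exceeded the difference between the groups, against 85.5% of all tested genes. The arrays of the 2 groups did not overlap for 8 members, of which 5 were higher with the Hdac6 vector (12.5%, against 12.3% of all tested genes) and 3 lower (7.50%, against 12.9%). The counts depended on the scaling, as did those of all genes. Quantile normalization gave 6 higher and 6 lower members (against 12.1% and 16.0% of all tested genes), median scaling 4 and 7 (against 8.04% and 20.5%), and normexp background correction 6 and 4 (against 9.75% and 10.1%).

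**Figure D2:**
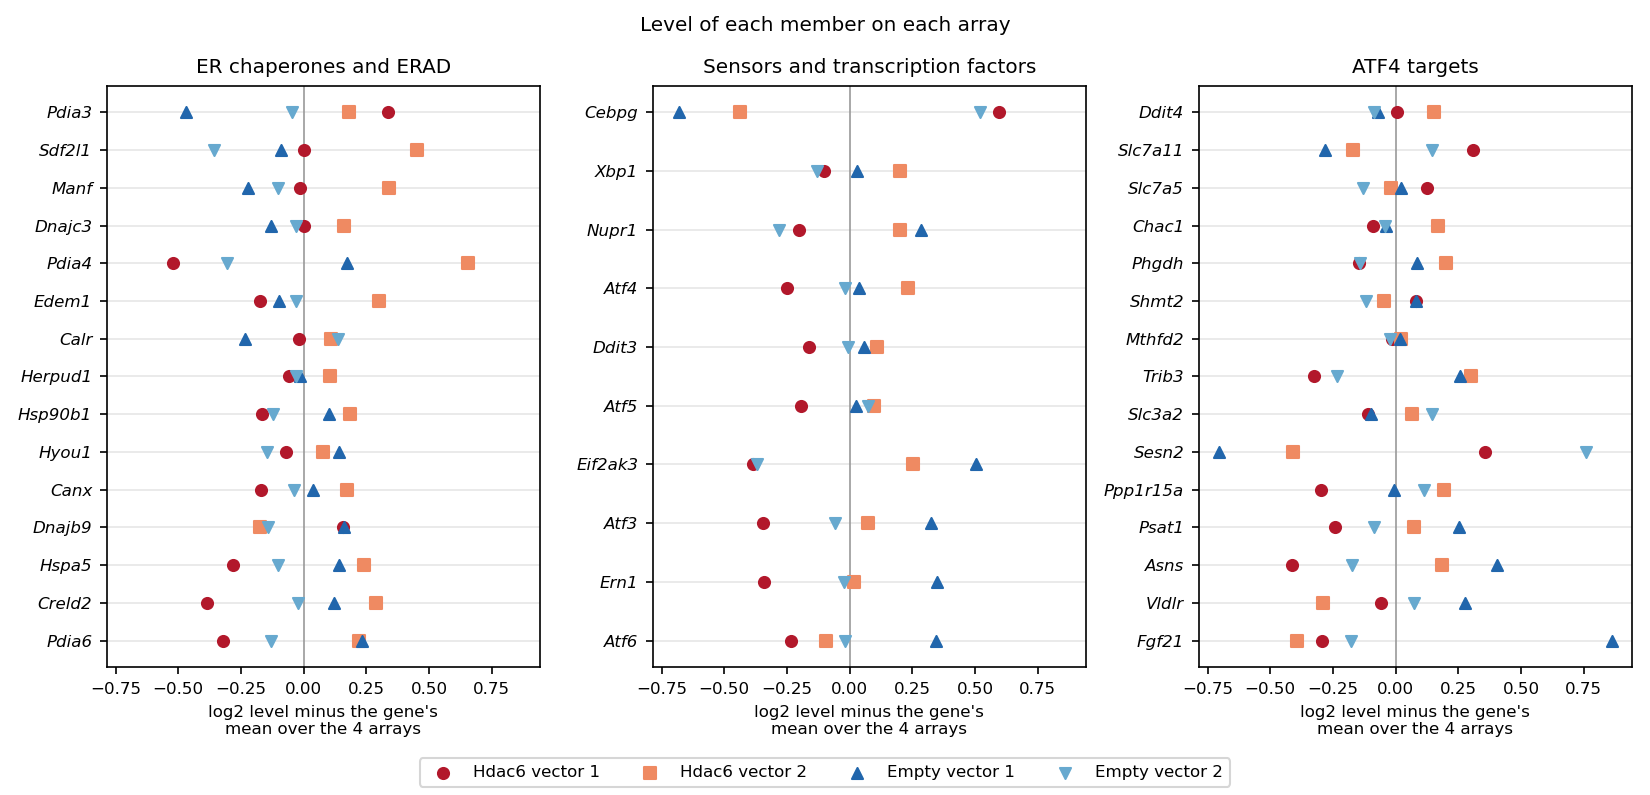
Level of each member on each array, as log2 level minus the gene's mean over the 4 arrays, with 1 point per array. In 32 of the 40 genes the Hdac6 vector points (red and orange) and the empty vector points (blue) overlap.

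The major ER chaperones had means close together in the 2 groups, and their arrays overlapped. Hspa5, the BiP chaperone that holds the sensors inactive and is the usual readout of the response, had levels of 6.93 and 7.45 with the Hdac6 vector, against 7.35 and 7.11 with the empty vector. Its fold was 0.971 (95% interval 0.627 to 1.51), and the Hdac6 vector arrays gave both its lowest and its highest value. Hsp90b1, the ER form of HSP90 (GRP94), showed the same arrangement, with 6.98 and 7.33 on the Hdac6 vector arrays, against 7.25 and 7.03 on the empty vector arrays (1.01-fold, 0.671 to 1.53). The lectin chaperones calreticulin and calnexin, which hold newly made glycoproteins, gave folds of 1.07 for Calr and 1.00 for Canx. Calr had 5.46 and 5.59 with the Hdac6 vector, against 5.24 and 5.61 with the empty vector. Canx had 5.46 and 5.80 with the Hdac6 vector, against 5.66 and 5.59 with the empty vector. Hyou1, a nucleotide exchange factor for BiP, read -3.04 and -2.90 with the Hdac6 vector, against -2.83 and -3.12 with the empty vector (1.00-fold). Creld2, an ER protein induced by ATF6, read 5.56 and 6.24 on the Hdac6 vector arrays, against 6.07 and 5.93 on the empty vector arrays, a log2 difference of -0.10.

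The 4 ER genes whose arrays did not overlap all had higher values with the Hdac6 vector: Pdia3, Sdf2l1, Manf and Dnajc3. That is 4 of 15 ER genes higher and 0 lower, against 12.3% and 12.9% of all tested genes, and none of them passed the test. The counts were also 4 and 0 under median scaling (against 8.04% and 20.5% of all tested genes) and with normexp (against 9.75% and 10.1%). They were 5 and 1 under quantile normalization (against 12.1% and 16.0%). Pdia3, the disulfide isomerase that works with calnexin and calreticulin, had levels of 4.32 and 4.17 on the Hdac6 vector arrays, against 3.52 and 3.94 on the empty vector arrays. The fold was 1.43 (0.970 to 2.11) with an adjusted p of 1.00 in limma's test. Both Hdac6 vector arrays stood above both empty vector arrays, and empty vector 1 was the lowest; without it the log2 difference was 0.31, against 0.52 with all arrays. A second Pdia3 probe gave 1.93 and 2.08 in Hdac6 vector cells, against 1.23 and 1.35 in empty vector cells, a log2 difference of 0.72 with an adjusted p of 1.00. The sequences of both probes are shown because this gene had the largest positive difference of the members on 2 separate probes; positions are in build mm9 as given in the scanner files.
Pdia3 brightest probe (chr2:121263343-121263402, plus strand): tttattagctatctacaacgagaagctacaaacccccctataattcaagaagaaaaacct
Pdia3 second probe (chr2:121258023-121258082, plus strand): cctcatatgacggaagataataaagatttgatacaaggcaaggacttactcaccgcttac

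Sdf2l1, a cofactor of ER DnaJ chaperones, had levels of 2.72 and 3.17 with the Hdac6 vector, against 2.63 and 2.36 with the empty vector (1.37-fold, 0.917 to 2.04). Hdac6 vector 1 lay just above the higher empty vector array. Manf, a secreted ER-resident protein that binds BiP, had 4.46 and 4.82 with the Hdac6 vector, against 4.25 and 4.37 with the empty vector (1.25-fold, 0.859 to 1.83), and its second probe read 4.21 and 4.63 on the Hdac6 vector arrays, against 4.07 and 3.86 on the empty vector arrays. Dnajc3, the BiP cochaperone p58IPK that also restrains PERK, had 1.02 and 1.18 with the Hdac6 vector, against 0.89 and 0.99 with the empty vector (1.12-fold). Leaving out Hdac6 vector 2 brought the log2 difference to 0.23 for Sdf2l1, 0.15 for Manf and 0.08 for Dnajc3. All 4 genes kept a positive difference under every alternative processing tried, and none passed under any.

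The other ER genes had overlapping arrays. Pdia4 read 1.64 and 2.81 on the Hdac6 vector arrays, against 2.33 and 1.85 on the empty vector arrays, so its 2 Hdac6 vector arrays were its lowest and its highest. Pdia6, an isomerase that also acts on IRE1 and PERK, had 6.78 and 7.33 in Hdac6 vector cells, against 7.34 and 6.98 in empty vector cells (0.931-fold, 0.593 to 1.46). Dnajb9, the BiP cochaperone ERdj4 and a target of XBP1, had 1.22 and 0.89 with the Hdac6 vector, against 1.22 and 0.92 with the empty vector. In ER-associated degradation, Edem1, which draws misfolded glycoproteins out of the calnexin cycle, had 2.70 and 3.18 with the Hdac6 vector, against 2.78 and 2.85 with the empty vector. Herpud1, a membrane scaffold of the degradation complex, had 4.10 and 4.26 on the Hdac6 vector arrays, against 4.14 and 4.12 on the empty vector arrays. Its dimmer probe read 1.26 and 1.54 in Hdac6 vector cells, against 1.06 and 0.94 in empty vector cells, which did not overlap and gave a log2 difference of 0.40.

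Across the 15 ER genes, 11 had a log2 fold change above 0 and 4 below, with a median of 0.05 and a range of -0.10 to 0.52, beside a median of 0.00 and 50.6% above 0 for all tested genes; under median scaling the list's median was -0.04 and that of all genes -0.09. The 8 genes with an ER stress response element in the promoter, shown above, had a median of 0.01 (-0.10 to 0.16). The 5 others with a promoter in the table (Pdia3, Pdia4, Dnajb9, Sdf2l1 and Edem1) had a median of 0.13 (-0.02 to 0.52). Of the 4 non-overlapping genes, Dnajc3 alone holds the element, while Manf had no promoter in the table.

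**Figure D3:**
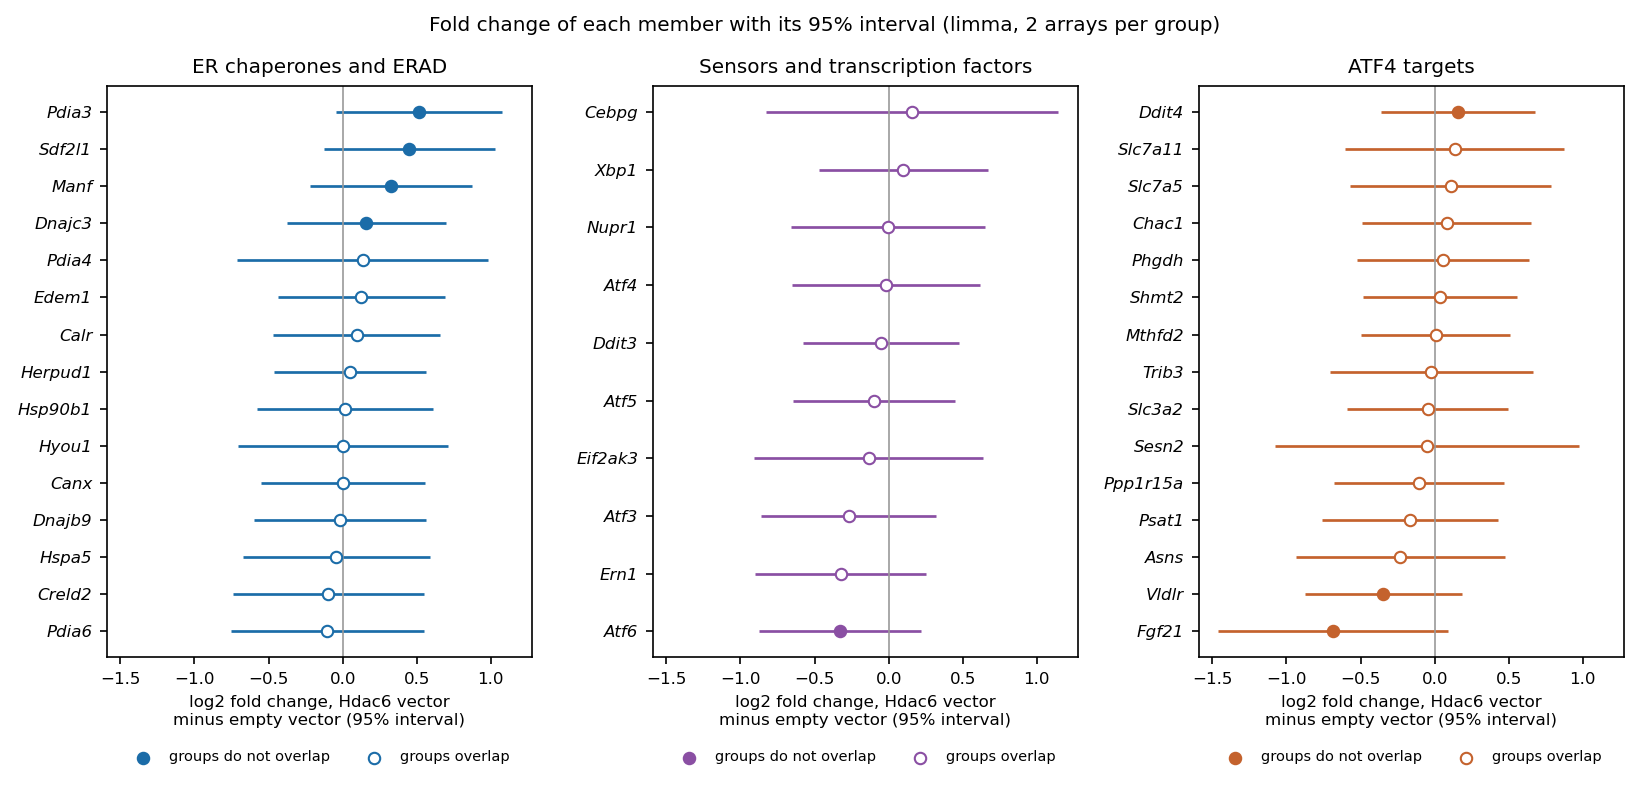
Log2 fold change of each member, Hdac6 vector over empty vector, with its 95% interval from limma, in 3 panels by role; filled points mark the 8 members whose groups of arrays do not overlap. Every interval includes 0.

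The transcription factors at the head of the pathway had folds close to 1, with overlapping arrays. Atf4, whose protein rises mainly through translation, had levels of 8.01 and 8.49 on the Hdac6 vector arrays, against 8.30 and 8.24 on the empty vector arrays (0.988-fold, 0.638 to 1.53). Ddit3, which encodes the pro-apoptotic factor CHOP, had 3.10 and 3.38 with the Hdac6 vector, against 3.33 and 3.26 with the empty vector (0.964-fold, 0.670 to 1.39). Atf5, another factor controlled by translation, had 5.70 and 5.99 on the Hdac6 vector arrays, against 5.92 and 5.96 on the empty vector arrays. In all 3 genes the Hdac6 vector arrays held both the lowest and the highest value. Xbp1, the factor made active by IRE1 splicing, read 6.51 and 6.81 with the Hdac6 vector, against 6.64 and 6.48 with the empty vector (1.07-fold). Its other 2 probes did not overlap between the groups, with log2 differences of 0.32 and 0.34. Each of the 3 probes lies on 60 contiguous genomic bases, so none of them spans a junction and spliced Xbp1 cannot be read from them.

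Of the sensors, Atf6 had 2.21 and 2.35 on the Hdac6 vector arrays, against 2.79 and 2.43 on the empty vector arrays, with no overlap (0.798-fold, 0.546 to 1.17). Ern1, the gene of IRE1, had 4.30 and 4.66 in Hdac6 vector cells, against 4.99 and 4.62 in empty vector cells, a log2 difference of -0.32. Its 5 tested probes ran from -0.32 to 0.52, so their directions disagreed. Eif2ak3, the gene of PERK, had 1.59 and 2.23 with the Hdac6 vector, against 2.48 and 1.61 with the empty vector. Atf3, an early stress factor that limits transcription of other stress genes, had 2.16 and 2.58 with the Hdac6 vector, against 2.83 and 2.45 with the empty vector (0.830-fold, 0.551 to 1.25). Cebpg, a partner of ATF4 at its response element, spread widely within both groups, at 2.59 and 1.56 on the Hdac6 vector arrays, against 1.32 and 2.52 on the empty vector arrays. Nupr1, a stress-induced chromatin protein, had 6.37 and 6.77 in Hdac6 vector cells, against 6.86 and 6.29 in empty vector cells, with a log2 difference of 0.00. Its second probe did not overlap, at -4.42 and -4.98 with the Hdac6 vector, against -4.30 and -4.40 with the empty vector (log2 difference -0.35). That probe is dim: on Hdac6 vector 2 the lowest level well above background was -5.33.

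Of the 10 sensors and factors, 2 had a log2 fold change above 0 and 8 below, with a median of -0.08 (-0.33 to 0.16) beside 0.00 for all tested genes. The groups of arrays did not overlap for 1 of them, Atf6, which was lower (1 of 10, against 12.9% of all tested genes). The count of lower genes was 3 under median scaling (against 20.5% of all tested genes). It was 2 under quantile normalization (against 16.0%) and 2 with normexp (against 10.1%). The count of higher genes was 0 throughout, against 8.04% to 12.3% of all tested genes. Leaving out Hdac6 vector 1 turned the median to 0.07, and leaving out Hdac6 vector 2 gave -0.25.

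Among the ATF4 targets, the genes of amino acid and one-carbon metabolism overlapped between the groups by their brightest probes. Asns, asparagine synthetase, had 6.64 and 7.24 with the Hdac6 vector, against 7.46 and 6.88 with the empty vector (0.852-fold, 0.522 to 1.39). Phgdh, the first enzyme of serine synthesis, read 6.32 and 6.67 with the Hdac6 vector, against 6.56 and 6.33 with the empty vector. Psat1, the next enzyme of that path, read 6.38 and 6.69 on the Hdac6 vector arrays, against 6.87 and 6.53 on the empty vector arrays (0.892-fold). By their brightest probes, both mitochondrial folate enzymes stayed within a narrow range over the 4 arrays. Mthfd2 read 3.16 and 3.19 with the Hdac6 vector, against 3.19 and 3.15 with the empty vector. Shmt2, which passes the serine carbon to folate, read 3.30 and 3.17 in Hdac6 vector cells, against 3.30 and 3.10 in empty vector cells. Their second tested probes were dimmer and spread more. That of Mthfd2 read 1.27 and 0.69 with the Hdac6 vector, against 1.05 and 1.09 with the empty vector. That of Shmt2 read -4.54 and -5.16 with the Hdac6 vector, against -5.18 and -4.78 with the empty vector. For the amino acid transporters, Slc7a11, the cystine carrier, read -1.95 and -2.43 with the Hdac6 vector, against -2.54 and -2.12 with the empty vector. Its partner Slc3a2, the shared heavy chain, read 5.25 and 5.43 on the Hdac6 vector arrays, against 5.26 and 5.51 on the empty vector arrays. Slc7a5, the leucine carrier, read -2.47 and -2.62 in Hdac6 vector cells, against -2.58 and -2.73 in empty vector cells. None of these 8 metabolic genes passed the test, and none separated the 2 groups of arrays by its brightest probe. The second tested Slc7a11 probe did, at -2.95 and -3.00 with the Hdac6 vector, against -2.93 and -2.76 with the empty vector, a log2 difference of -0.13 opposite in sign to the 0.14 of the brightest.

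Among the stress regulators of this list, none passed the test, and the groups overlapped for all but Ddit4 of those given here. Trib3, a pseudokinase that restrains ATF4 and AKT, had 6.20 and 6.82 with the Hdac6 vector, against 6.78 and 6.29 with the empty vector (0.984-fold, 0.612 to 1.58). Chac1, which degrades glutathione, had 7.09 and 7.35 with the Hdac6 vector, against 7.14 and 7.14 with the empty vector (1.06-fold, 0.713 to 1.57). Ppp1r15a, the GADD34 subunit that reverses eIF2alpha phosphorylation, had 3.84 and 4.34 on the Hdac6 vector arrays, against 4.14 and 4.25 on the empty vector arrays. Sesn2, an inhibitor of mTORC1, differed more within the groups than between them, at 1.75 and 0.99 in Hdac6 vector cells, against 0.69 and 2.15 in empty vector cells. Ddit4, the REDD1 inhibitor of mTORC1, was the 1 ATF4 target higher on both Hdac6 vector arrays, at 5.08 and 5.23 with the Hdac6 vector, against 5.00 and 4.98 with the empty vector (1.12-fold, 0.778 to 1.60).

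The 2 targets with the lowest folds were Fgf21 and Vldlr, and both had lower values on both Hdac6 vector arrays. Fgf21, a hormone of fasting and mitochondrial stress, had levels of 0.36 and 0.26 with the Hdac6 vector, against 1.51 and 0.47 with the empty vector (0.621-fold, 0.363 to 1.06). Empty vector 1 stood apart from the 3 others, which lay between 0.26 and 0.47. Without that array the log2 difference was -0.17 in place of -0.69, and without empty vector 2 it was -1.21 with an adjusted p of 0.0521, in a range of 0.0521 to 1.00 over the alternatives. Fgf21 was the 1 member at least 1.5-fold apart, or 2.50% of members, against 6.32% of all tested genes. Vldlr, the lipoprotein receptor known in mouse liver as a PERK and ATF4 target, had 3.93 and 3.70 on the Hdac6 vector arrays, against 4.26 and 4.06 on the empty vector arrays (0.786-fold, 0.544 to 1.14). Its second probe read 0.25 and 0.16 in Hdac6 vector cells, against 0.69 and 0.28 in empty vector cells.

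Across the 15 ATF4 targets, 7 log2 fold changes were above 0 and 8 below, with a median of -0.02 (-0.69 to 0.16). The groups did not overlap for 1 target that was higher (6.67%, against 12.3% of all tested genes) and 2 that were lower (13.3%, against 12.9%). Under median scaling these counts were 0 higher, against 8.04% of all tested genes, and 4 lower (26.7%, against 20.5%). They were 1 and 3 under quantile normalization (against 12.1% and 16.0% of all tested genes). With normexp background correction they were 2 and 2 (against 9.75% and 10.1%). The 9 members with a C/EBP-ATF element in the promoter had a median of -0.02 (-0.69 to 0.14). Of these, 6 are among the 15 targets, so this median is not a separate reading.

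For most members the arrays within a group lay further apart than the group means. Hdac6 vector 2 gave the highest level for 20 of the 40 members (against 39.7% of all tested genes) and Hdac6 vector 1 the lowest for 22 (55.0%, against 38.0%). In 14 members (35.0%, against 23.0% of all tested genes) the 2 Hdac6 vector arrays held both extremes, among them Hspa5, Hsp90b1, Canx, Atf4, Ddit3, Trib3 and Chac1. The median deviation of the ER genes was -0.07 on Hdac6 vector 1 and 0.19 on Hdac6 vector 2, against 0.04 on empty vector 1 and -0.10 on empty vector 2. For the sensors and factors it was -0.22 and 0.10 with the Hdac6 vector, against 0.17 and -0.02 with the empty vector. All tested genes also sat lower on Hdac6 vector 1, at -0.09, than on Hdac6 vector 2, at 0.09. After quantile normalization the ER median was 0.02 on both Hdac6 vector arrays, against -0.03 and -0.04 on the empty vector arrays. The sensors and factors then still stood highest on empty vector 1, at 0.16.

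**Figure D4:**
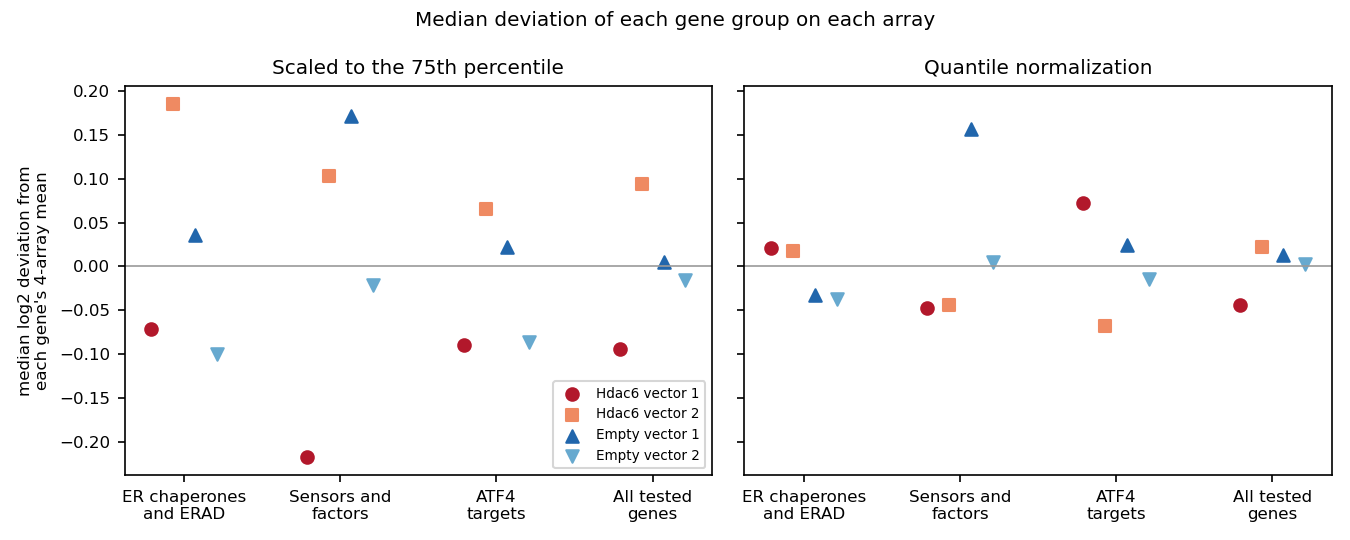
Median log2 deviation from each gene's mean over the 4 arrays, for each list and for all tested genes, under scaling to the 75th percentile and under quantile normalization. The 2 Hdac6 vector arrays lie apart in the ER genes under the first (-0.07 and 0.19) and together under the second (0.02 each).

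Several members were read by more than 1 probe. Of the 75 member probes 71 were tested, and none changed. The groups did not overlap for 10 of these probes in the higher direction, against 13.1% of all tested probes, and for 6 in the lower, against 12.0%. Of 23 members with several tested probes, 11 had one sign on all of them: Pdia3, Manf, Edem1, Herpud1, Canx, Hyou1, Xbp1 and Shmt2 above 0, and Vldlr, Asns and Nupr1 below. In the other 12, Hspa5 and Atf4 among them, the probes disagreed in sign. For Ddit3 the brightest probe gave -0.05 and the other 0.44.

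**Figure D5:**
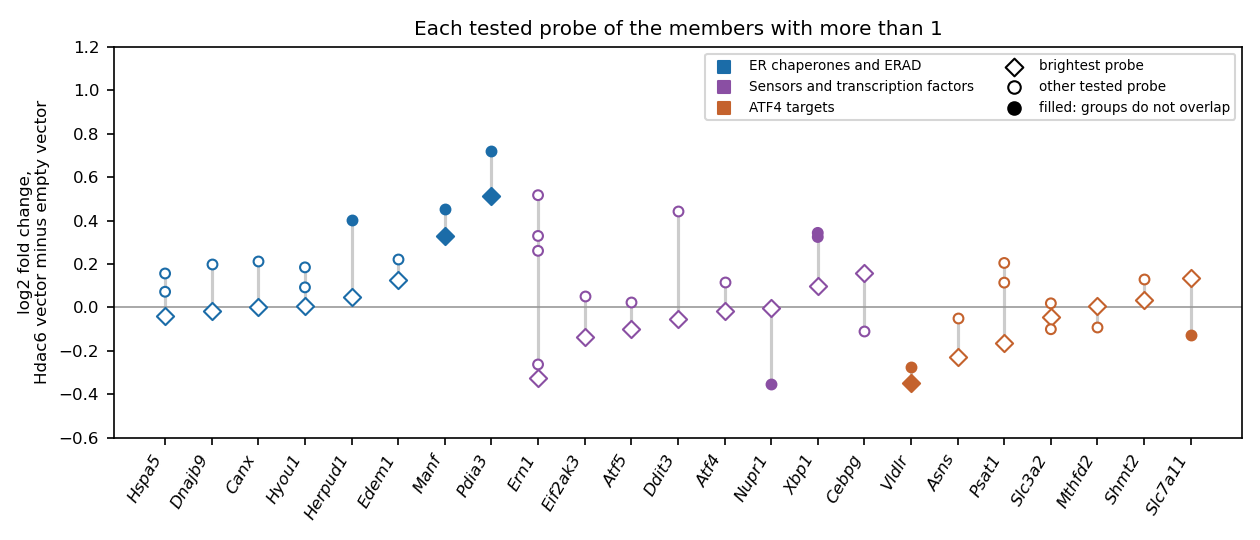
Log2 fold change, Hdac6 vector over empty vector, of every tested probe of the 23 members that have more than 1, with the brightest probe as a diamond, other probes as circles, and filled symbols where the groups do not overlap. Both Pdia3 probes lie above 0.5, while the 5 Ern1 probes run from -0.32 to 0.52.

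A wider list of 72 other genes of the pathway also held no gene that passed. Of these 71 were tested, 36 had a log2 fold change above 0 and 35 below, and the median was 0.00. The groups did not overlap for 8 that were higher (11.3%, against 12.3% of all tested genes) and 7 that were lower (9.86%, against 12.9%). The balance turned with the scaling, to 7 and 13 under median scaling (9.86% and 18.3%, against 8.04% and 20.5% of all tested genes). It was 13 and 10 under quantile normalization (18.3% and 14.1%, against 12.1% and 16.0%). With normexp it was 9 and 8 (12.7% and 11.3%, against 9.75% and 10.1%). The 40 other ER genes had a median of 0.02, the 11 other regulators 0.02 and the 20 other ATF4 targets -0.09. The largest negative values were those of Ero1a, Stc2 and Gdf15. Ero1a, the oxidase that recharges disulfide isomerases, had 4.16 and 4.37 with the Hdac6 vector, against 5.51 and 4.74 with the empty vector (0.550-fold, 0.348 to 0.871), with an adjusted p of 1.00 in limma's test and an unadjusted p of 0.0165. Stc2, a secreted glycoprotein, read -2.09 and -2.32 on the Hdac6 vector arrays, against -1.34 and -1.95 on the empty vector arrays. Gdf15, a stress-induced hormone, read 0.12 and 0.22 in Hdac6 vector cells, against 1.03 and 0.06 in empty vector cells. As with Fgf21, empty vector 1 was the highest array for all 3. The largest positive values were those of Creb3l1, a relative of ATF6, Tmbim6, an inhibitor of cell death, and Sec61g, a subunit of the translocation channel. Creb3l1 read -1.24 and -0.995 with the Hdac6 vector, against -1.61 and -1.56 with the empty vector. Tmbim6 read 4.18 and 4.13 on the Hdac6 vector arrays, against 3.95 and 3.74 on the empty vector arrays, and Sec61g 6.74 and 6.98 in Hdac6 vector cells, against 6.54 and 6.60 in empty vector cells.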

How the data were processed

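RNA was measured in 4 samples, 2 per group, on one-colour Agilent mouse arrays. Per the file headers, the deposited scanner files give a spot intensity from Feature Extraction 11.5.1.1 (protocol GE1_1105_Oct12), corrected for background and spatial trend within an array and not scaled across arrays. The submitters' processing notes name this program too. The authors also deposited log2 values, 1 row per gene name, and the way these were derived is not stated in the labels or headers. All arrays shared 1 slide and 1 scan time.

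Repeated spots were averaged, and log2 processed intensity was taken relative to each array's 75th percentile. Probes well above background on both arrays of at least 1 group were tested in limma 3.58.1 (run in R 4.3.3) by a two-sided moderated test whose prior spread follows the signal, at an adjusted p threshold of 0.05. The script was tested on simulated data. A member stands for its brightest tested probe. The text names all 40 members, Hdac6, and from the wider list the genes that passed or else the 3 largest values each way. Members and lists were chosen with earlier results of these data known. Same-numbered arrays deviated oppositely (correlation -0.35 over 35214 probes). From so few arrays this cannot show whether same-numbered samples were prepared together. The main fit treated the samples as unpaired. Alternatives changed the background correction, scaling, filter, spread model, probe choice, source of values, block and replicates. Signal over background and the number of arrays limit the precision.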

Additional observations from a re-analysis of the deposited data

How the results depend on the processing

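No member passed under any alternative run. With 2 arrays per group the members' 95% intervals reached a median of 0.58 to each side on the log2 scale, which is the limit on what these arrays can show. Of all probes, 4 changed as reported, 32 with normexp background correction, 2 with quantile normalization, 0 with median scaling (727 at an unadjusted p under 0.05 in limma), 2 without a trend in the spread and 0 to 310 with single replicates left out, the extremes being without Hdac6 vector 2 (0, with 652 at an unadjusted p under 0.05) and without empty vector 2 (310). In the authors' deposited table, which has 1 row per gene name, 19 of 23464 tested names changed. The lone array of a group left by dropping a replicate is assumed to vary like the others. With replicate number as a block 22 probes changed, and no call of a member differed. A crossed block, chosen after seeing the data, gave 18 probes and 0 members. Leaving out single replicates moved the ER median between -0.069 and 0.22, the lower coming without Hdac6 vector 2 and the higher without Hdac6 vector 1. Of 560 alternative values of members, 480 kept their sign and 80 turned, in 31 members, while 9 held throughout (Atf3, Ddit4, Dnajc3, Fgf21, Manf, Pdia3, Sdf2l1, Slc7a5 and Vldlr). The cause of the turns was not tested. Log2 fold changes turned with normexp (Hsp90b1 -0.070, Atf4 0.034, Shmt2 -0.028, Mthfd2 -0.093), quantile normalization (Hsp90b1 -0.041, Dnajb9 0.0036, Hyou1 -0.068, Phgdh -0.0010), median scaling (Hsp90b1 -0.072, Canx -0.088, Hyou1 -0.086, Herpud1 -0.043, Phgdh -0.036, Shmt2 -0.056, Mthfd2 -0.083, Chac1 -0.010), the mean of all probes (Hspa5 0.062, Dnajb9 0.090, Ern1 0.10, Atf4 0.050, Ddit3 0.20, Psat1 0.051, Mthfd2 -0.040) and the authors' deposited table (Hsp90b1 -0.059, Dnajb9 0.013, Atf6 1.80, Ern1 0.57, Ddit3 0.12, Cebpg -0.055, Phgdh -0.027, Mthfd2 -0.12, Slc7a11 -0.076). With single replicates left out, the ranges were Asns -0.53 to 0.068, Atf4 -0.26 to 0.22, Atf5 -0.24 to 0.047, Calr -0.092 to 0.28, Canx -0.17 to 0.17, Cebpg -0.44 to 0.76, Chac1 -0.049 to 0.21, Creld2 -0.43 to 0.24, Ddit3 -0.19 to 0.084, Dnajb9 -0.18 to 0.15, Edem1 -0.11 to 0.36, Eif2ak3 -0.57 to 0.30, Herpud1 -0.033 to 0.13, Hsp90b1 -0.16 to 0.20, Hspa5 -0.30 to 0.22, Hyou1 -0.14 to 0.15, Mthfd2 -0.013 to 0.028, Nupr1 -0.29 to 0.28, Pdia4 -0.45 to 0.72, Pdia6 -0.37 to 0.17, Phgdh -0.12 to 0.23, Ppp1r15a -0.35 to 0.14, Psat1 -0.33 to 0.0034, Sesn2 -0.78 to 0.68, Shmt2 -0.065 to 0.14, Slc3a2 -0.17 to 0.077, Slc7a11 -0.10 to 0.38, Trib3 -0.34 to 0.29, Xbp1 -0.052 to 0.25.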

Other observations

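In the authors' deposited table, 3 members had group differences that stood apart from those of their brightest probes, in direction or size. For Atf6 the authors' deposited table gives 2.48 and 2.45 for the Hdac6 vector arrays, against -1.36 and 2.70 for the empty vector arrays, a log2 difference of 1.80 where the brightest probe gave -0.33. For Shmt2 it is -0.35 and 3.28, against -0.67 and -0.57 in the authors' deposited table, a difference of 2.09 where the brightest probe gave 0.04. For Ern1 the authors' deposited table differs by 0.57, where the brightest probe gave -0.32. Each of the 12 member values of the authors' deposited table for which some probes were dim on that array equals the mean of the probes above background there, within 0.01, and none equals the mean of all probes. Which probes enter a value of the authors' deposited table thus differs between arrays for these genes.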
